A study of Sus scrofa with 20 samples.

Results

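The ileal mucosa of suckling piglets at 14 days of age (S14D) was compared with the ileal mucosa of all older piglets of the series, taken as 1 pooled set. The comparison used all 20 arrays, 3 of S14D piglets and 17 of later piglets. Arrays were assigned to S14D or to the later set by age label alone. The comparison itself was chosen with earlier results of these data known. All piglets were Landrace × Large white × Duroc crosses bred in Japan, and each array held RNA scraped from the mucosa of the distal ileum of 1 piglet. S14D, S21D, S28D and S35D piglets were still suckling, had no access to the feed of the sow and were killed at 14, 21, 28 and 35 days of age (n = 3, 4, 4 and 3 arrays). 21W28D and 21W35D piglets were taken off the sow at 21 days, were fed a commercial weaning diet and were killed at 28 and 35 days (n = 3 each). The later arrays thus held 11 from suckling and 6 from weaned piglets, and so mixed ages and diets. S14D piglets differed from every later group in age, and S14D and S21D piglets had the same milk diet. The labels S35D and 21W28D may stand exchanged in the deposited data, which was not settled here. Pooling the 17 later arrays makes the comparison independent of that exchange.

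The ileum is the last stretch of the small intestine, where bile acids are taken back up and where the pig has a long, continuous Peyer's patch, a lymphoid organ that fills with B cells. In newborn mammals its enterocytes take up whole milk proteins by endocytosis and digest them in large lysosomal vacuoles. These cells are later replaced by enterocytes that absorb nutrients already digested in the gut lumen. Milk also brings maternal immunoglobulin, and the mucosa gains its own lymphocytes, plasma cells and antigen-presenting cells over the first weeks of life.

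The values were log2 intensities of probe sets, so that 1 unit is a 2-fold difference, and each difference is S14D minus later. Values near 2.1 log2 units are the floor of the scale, and a difference from the floor is a difference from the least value the normalization can give. Over all probe sets the array medians lay between 5.07 and 5.35 in S14D and between 5.14 and 5.27 in later arrays, and the median difference was 0. No 2 arrays were copies (highest r = 0.997). The enterocyte markers VIL1, FABP2 and CDH17 were at 12.11 log2 units or more on every array, and JCHAIN of plasma cells at 11.44 or more. The arrays held both sexes, with XIST above 6 log2 units in 2 S14D and 6 later arrays. 3 arrays stood apart from their groups: S14D replicate 1 by erythrocyte genes, S35D replicate 3 by smooth muscle genes and 21W35D replicate 2 by a low level of B cell genes. The B cell genes also differed within S14D, with mean levels of 9.24, 8.16 and 6.39 log2 units in replicates 1, 2 and 3. Each array came from 1 piglet, but the litters are not given for the arrays, while the piglets came from only a few sows, so that some arrays share a litter and the p-values measure the spread between piglets that are not all unrelated.

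A probe set was called when its limma adjusted p was under 0.05 and its difference at least 2-fold. On the adjusted p alone, 9.35% of 23999 probe sets were higher and 6.77% lower in S14D. With the 2-fold difference, 1755 were called (7.31%), 1037 higher in S14D (4.32%) and 718 lower (2.99%). Those with a gene symbol came from 385 genes that were higher and 311 genes that were lower. Of the 1037 higher calls 289 were at least 4-fold and 40 at least 16-fold. Among the 718 lower calls 192 were at least 4-fold and 5 at least 16-fold. Of the probe sets called higher, 593 were above the value of every later array, and of those called lower, 181 were below every later array. Over all probe sets, called or not, 3.97% lay wholly above and 1.77% wholly below the later arrays. All but 1 of the 1755 called probe sets differed in the same direction from each of the 5 later group means. This largely follows from the calling, which used the same later arrays and a spread that includes the differences among their groups. Among the probe sets called higher, 144 had a later mean under 3 log2 units, near the floor, while 27 of those called lower had such a mean in S14D. Leaving out 1 array moved the counts. There were 799 calls without S14D replicate 3, 1112 without S14D replicate 2 and 2303 without S14D replicate 1, of which 603, 767 and 1170 were higher and 196, 345 and 1133 lower. Without 21W35D replicate 2 there were 1178 higher and 1077 lower calls.

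**Figure D1:**
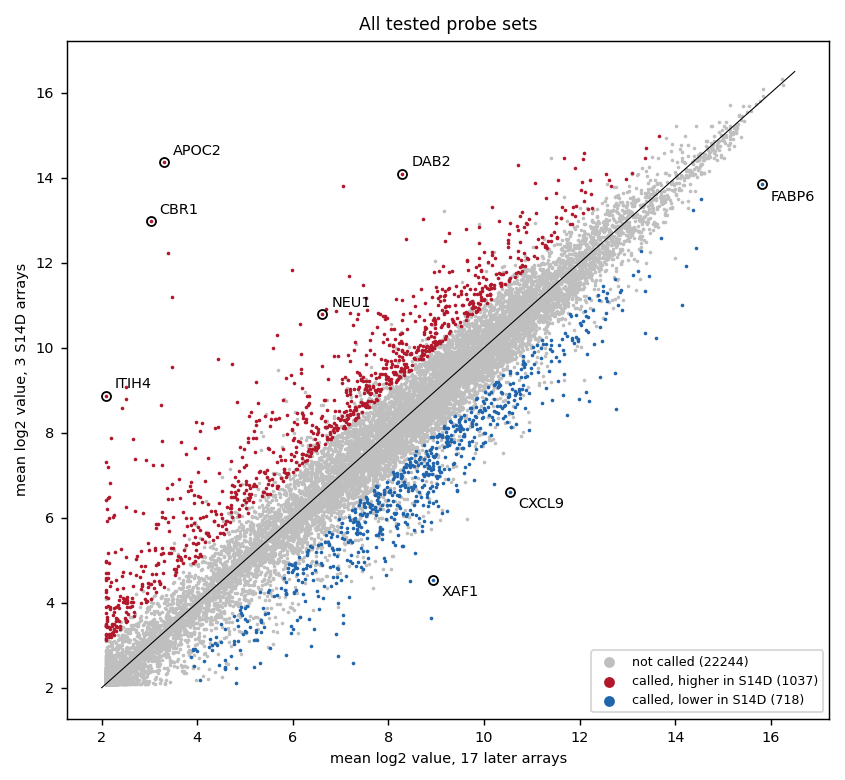
Mean log2 intensity of each probe set in the 3 S14D arrays (vertical axis) against its mean in the 17 later arrays (horizontal axis), with the 1037 probe sets called higher in S14D and the 718 called lower in colour. APOC2 and CBR1 lie farthest above the diagonal, with later medians at the floor of 2.1 and a few higher later arrays, while the genes lower in S14D, such as XAF1, CXCL9 and FABP6, lie closer to it.

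Among the lists examined, the lysosomal list had the highest share of genes that were higher in S14D. The gene lists were chosen with earlier results of these data known. The counts of this and all following lists therefore describe the data and are not independent tests. Of 38 measured genes for lysosomal enzymes and membrane proteins, 28 were higher in S14D and 1 was lower (adjusted p under 0.05, limma), with a median difference of 1.2 log2 units. Over all 6765 genes, each by its brightest probe set, 11.4% were higher and 9.67% lower. Values of 20 of the 38 lay above every later array, against 5.11% of all genes, and none lay wholly below. The mean level of the list was 10.61, 11.11 and 11.37 log2 units in the S14D arrays and between 9.38 and 10.09 in the later arrays, so that the sets did not overlap. The later groups lay close together, at 9.81 ± 0.17 in S21D, 9.53 ± 0.16 in S28D, 9.76 ± 0.04 in S35D, 9.55 ± 0.08 in 21W28D and 9.87 ± 0.19 in 21W35D (SD, n = 4, 4, 3, 3 and 3), against 11.03 ± 0.39 in S14D (SD, n = 3). In bulk tissue, fewer cells of a type and less RNA per cell cannot be told apart, here and in every comparison that follows.

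Of the list, 3 enzymes that strip sugars from glycoproteins and glycolipids, NEU1, FUCA1 and HEXA, had the largest differences. NEU1, the lysosomal sialidase, had 10.10, 10.82 and 11.46 log2 units in S14D and 5.29 to 8.50 in later arrays (median 6.55). The S14D arrays were all above the later ones, by 4.18 ± 0.50 log2 units or 18.1-fold (SE, adjusted p = 1.37e-05). HEXA, the alpha subunit of beta-hexosaminidase, had 12.70, 13.03 and 13.21 in S14D and 9.74 to 11.04 in later arrays (median 10.30). Its S14D values were close to each other and well above the later range, with a difference of 2.67 ± 0.22 or 6.37-fold (adjusted p = 1.6e-07). The other glycosidases FUCA1 (difference 2.82, alpha-fucosidase), GLA (2.26, alpha-galactosidase), GUSB (2.12, beta-glucuronidase) and GLB1 (1.74, beta-galactosidase) were also higher in S14D, and GLB1 alone of these overlapped with a later array. AGA, which cuts the sugar chain off asparagine, was higher by 1.58 log2 units and ARSA, an arylsulfatase, by 2.30.

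Proteases, lipid handling proteins and proteins of the lysosomal membrane were higher in S14D as well. Among the proteases, the asparaginyl endopeptidase LGMN had 14.14, 14.68 and 14.92 log2 units in S14D and 10.84 to 13.32 in later arrays (median 12.15). Its S14D values were the highest of all, by 2.50 log2 units, and it was the 1 gene of the list that also differed among the later groups (F test, adjusted p = 0.026). The tripeptidyl peptidase TPP1 was higher by 2.18, and the cathepsins CTSH, CTSZ, CTSC, CTSB and CTSD by 1.84, 1.35, 1.03, 1.00 and 0.83. NPC2, which moves cholesterol out of lysosomes, was higher by 2.09, the acid lipase LIPA by 1.68, and PSAP, the precursor of activators of sphingolipid breakdown, by 1.40. The membrane proteins LAMP1, LAMP2 and CD63 were higher by 1.55, 0.79 and 0.74, and all 3 lay above every later array. TFEB, a transcription factor of lysosomal genes, had 8.22, 7.85 and 8.02 in S14D and 6.58 to 8.02 in later arrays (median 7.27), a difference of 0.87 with the sets just touching. Its adjusted p was 0.026 and missed the threshold in 3 of the 20 fits that left out 1 array.

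The exception was ACP5, the tartrate-resistant acid phosphatase that is known from macrophages and osteoclasts. It had 10.60, 9.45 and 8.23 log2 units in S14D and 10.06 to 11.82 in later arrays (median 11.29), a difference of -1.70 (adjusted p = 0.0076), and S14D replicate 1 overlapped with the later arrays. The 9 genes that did not pass included IDS, MAN2B1, CTSS, CTSK and NPC1. PLBD1 was counted among them by its brightest probe set (difference -0.23, adjusted p = 0.287), although 2 other probe sets of that gene differed by 4.52 and 5.41. Of the 28 higher genes, 22 passed in every 1 of the 20 fits that left out 1 array. Against the 6 weaned arrays alone 18 of the 38 were higher.

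**Figure D2:**
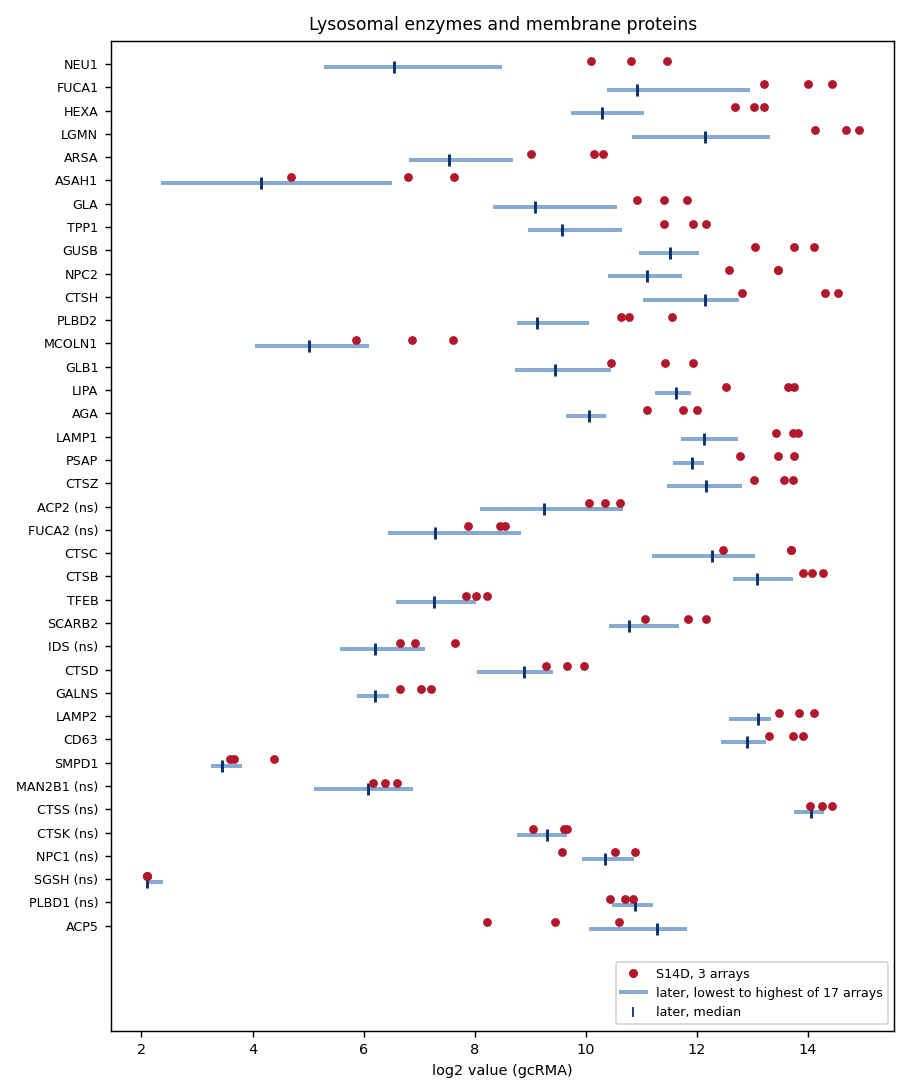
Log2 intensity of the 38 measured lysosomal genes, with the 3 S14D arrays as dots and the range and median of the 17 later arrays as bars with a tick, in order of the difference. For 20 genes every dot lies above the bar, ACP5 is the 1 gene that was lower in S14D, and genes that did not pass are marked (ns).

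In the list for endocytosis, DAB2 and AMN had large differences, and the others that passed differed by 1.09 log2 units or less. Of 17 measured genes for endocytic receptors and adaptors 6 were higher in S14D and 1 was lower. These shares were 35.3% and 5.88%, against 11.4% and 9.67% of all genes. Values of 4 of the 17 lay above every later array, against 5.11% of all genes. DAB2, the adaptor that couples cargo receptors to clathrin and that in mice and zebrafish marks enterocytes taking up luminal protein, had 13.73, 14.23 and 14.34 log2 units in S14D and 6.60 to 11.32 in later arrays (median 8.14). Every S14D array was above the highest later one, by 5.81 ± 0.87 on average (SE, adjusted p = 1.46e-04), and the 2 other DAB2 probe sets differed by 4.21 and 4.33. AMN, amnionless, the membrane anchor of the receptor cubilin, was higher by 2.13 (10.96, 11.58 and 11.60 in S14D, 8.14 to 10.45 in later arrays). The late endosome GTPase RAB7A was higher by 0.60 and the clathrin light chain CLTA by 0.44. Both were small differences with S14D values above all later arrays. RAB11A, a GTPase of recycling endosomes, differed by 0.98 and BIN1, a membrane-bending protein, by -1.09, and each lost its call without S14D replicate 2 (adjusted p = 0.135 and 0.15) or replicate 3 (0.233 and 0.087). The sixth higher gene, LRP2 (megalin), was at the floor in both sets (at most 2.17 in S14D). FCGRT, the receptor for the constant part of IgG, did not pass (0.6 log2 units).

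Several of the genes with the largest differences were at the floor in most later piglets. APOC2, an apolipoprotein of chylomicrons and activator of lipoprotein lipase, had 13.78, 14.57 and 14.74 log2 units in S14D, and its later arrays had 2.08 to 10.85 with a median of 2.09. The S14D arrays were high and close together, while S21D was split, with 2 of its 4 arrays at 10.5 and 10.9 and the other 2 at 2.1 and 3.1. Of the other later arrays, 21W35D replicate 2 had 4.5 and the rest were at the floor. The difference was 11.06 ± 1.66 (SE, adjusted p = 1.57e-04). CBR1, a carbonyl reductase of detoxification and prostaglandin breakdown, had 12.04, 12.81 and 14.10 in S14D and 2.08 to 9.23 in later arrays (median 2.08). It was again split in S21D (4.8, 2.1, 9.2 and 8.2), with an average difference of 9.96 ± 1.33 (adjusted p = 4.66e-05). ITIH4, a plasma protein of the inter-alpha-trypsin inhibitor family made mainly in liver, had 7.97, 8.74 and 9.92 in S14D and no later array above 2.1. 20 of the 31 genes measured from the list of plasma proteins were under 3 log2 units in every array. KLHDC7A likewise had 6.83, 7.91 and 7.19 in S14D, with every later array at the floor of 2.08.

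Further genes among the 15 with the largest higher differences were UPK3A, a uroplakin (5.31), MMP20, a matrix metalloproteinase known from enamel (4.88), the actin-binding protein ABLIM3 (4.69), the F-box protein FBXL2 (4.55), GPD1 (4.43), which makes glycerol phosphate for fat synthesis, and the folate receptor FOLR2 (4.40). FOLR2 had 9.47, 10.22 and 10.31 in S14D and 4.72 to 6.4 in later arrays, more than 3 log2 units apart at the nearest. Of the 15 genes with the largest higher differences, 13 had a later array of at least 3 log2 units. The highest later array of these was an S21D array for 8 genes, 21W35D replicate 2 for 4 genes and an S35D array for 1 gene. RACK1 and CAPNS1 were named by 1 probe set (6.76 and 4.41), while their brightest probe sets did not pass (-0.21, adjusted p = 0.248, and -0.18, adjusted p = 0.693). The RACK1 probe set also lost its call without S14D replicate 2 (adjusted p = 0.0641) or replicate 3 (0.0866).

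**Figure D3:**
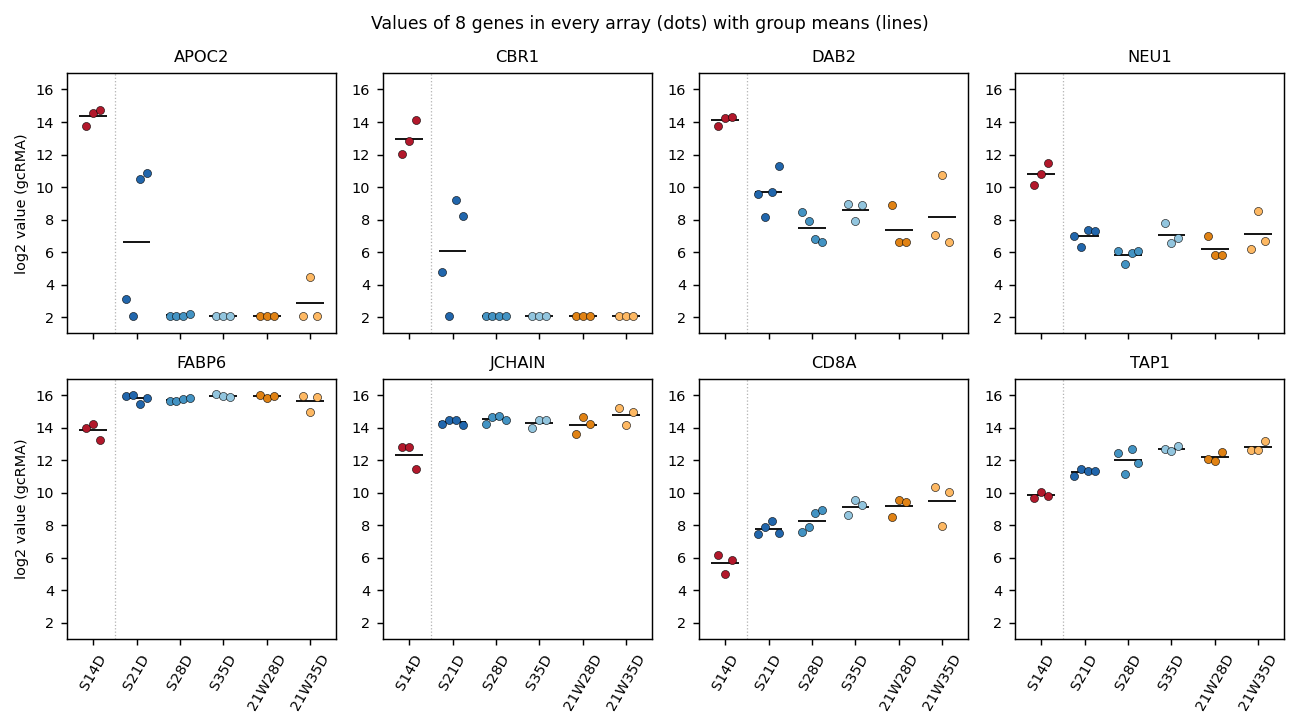
Log2 intensity of 8 genes on each of the 20 arrays by group, with a line at the mean of each group. APOC2, CBR1, DAB2 and NEU1 are higher and FABP6, JCHAIN, CD8A and TAP1 lower in S14D than in any later array, and APOC2 and CBR1 are split among the 4 S21D arrays.

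In the list for fat uptake and export, 4 of 21 measured genes were higher in S14D, APOC2 among them, and none was lower. The higher share was 19%, against 11.4% of all genes. Values of 3 of the 21 lay above every later array, against 5.11% of all genes. The median difference of the list was 0.79, and the number of higher genes was 7 without 21W35D replicate 2. GPD1 had 6.84, 7.38 and 7.86 in S14D, while most later arrays were at its floor of 2.41 (highest 5.54). SCARB1, a lipoprotein receptor, was higher by 1.18 and PLIN2, a coat protein of fat droplets, by 1.33. PLIN2 overlapped with later arrays and missed the threshold without any 1 of the S14D arrays (adjusted p = 0.0544, 0.091 and 0.226). The main chylomicron proteins APOB, MTTP and APOA4 did not pass. No member of 13 measured genes of cholesterol synthesis passed in either direction.

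FABP6, the ileal bile acid-binding protein, was among the brightest genes on the arrays and was lower in S14D. It had 13.99, 14.27 and 13.27 log2 units in S14D and 15 to 16.07 in later arrays (median 15.87). All 3 S14D arrays were below the lowest later one, by 1.97 ± 0.18 on average, 3.92-fold (SE, adjusted p = 7.2e-07), and the later groups did not differ by the F test. Of the other bile acid genes, 3 were measured and none passed.

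Among 38 genes of phase I and phase II detoxification, 5 were higher and 4 lower in S14D (13.2% and 10.5%), close to the shares over all genes. Beside CBR1 the higher genes were the glutathione transferase GSTM3, the monooxygenases FMO5 and FMO1, and the aldehyde dehydrogenase ALDH3A2 (1.04). GSTM3 lost its call without S14D replicate 2 or replicate 3 (adjusted p = 0.195 and 0.174). CYP3A29, a cytochrome P450 that oxidises drugs and steroids, had 9.52, 10.56 and 10.42 in S14D and 11.15 to 14.69 in later arrays (median 12.63), a difference of -2.31 with no overlap. UGT2B31, which couples glucuronic acid to such compounds, differed by -2.79 at its brightest probe set, with overlap. A dimmer UGT2B31 probe set differed by -4.19. The brighter one missed the threshold without S14D replicate 3 (adjusted p = 0.0693). Without S14D replicate 1 or replicate 2 the list held 2 lower genes, and 2 against weaned arrays alone.

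Small numbers of genes of energy and amino acid metabolism passed. The higher share was 16.7% for fatty acid oxidation and 27.3% for arginine and citrulline synthesis, against 11.4% of all genes. The lower share was 21.1% for sugar metabolism and 3.08% for oxidative phosphorylation, against 9.67% of all genes. The acyl-CoA dehydrogenases ACADS (1.19) and ACADM (1.09) and the hydroxyacyl-CoA dehydrogenase HADH (1.1) were the 3 of 18 fatty acid oxidation genes that passed, all higher in S14D, and HADH missed the threshold without S14D replicate 3 (adjusted p = 0.0514). PCK2, the mitochondrial enzyme of gluconeogenesis, had 9.66, 10.08 and 10.11 in S14D and 6.49 to 9.07 in later arrays (median 7.51), and was higher by 2.33. 4 of the 19 genes of sugar metabolism were lower, the glycolytic enzymes HK1, ENO1, TPI1 and GAPDH, by 0.92 or less. That number was 1 without S14D replicate 2, 0 without replicate 3, and 7 without S35D replicate 1 or 21W35D replicate 2. Of 11 genes of arginine and citrulline synthesis, 3 were higher (CPS1, ALDH18A1 and GLUL, by 0.96, 0.83 and 0.72), which was 1 without S14D replicate 3, 5 without S35D replicate 1 and 6 without 21W35D replicate 2. Of 65 genes of oxidative phosphorylation 2 were lower and none higher, with a median difference of 0.00.

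At the brush border and the epithelial surface, 2 of 10 digestive hydrolases were higher, or 20% against 11.4% of all genes. These were MEP1B, a meprin that cuts peptides (1.32), and XPNPEP2, an aminopeptidase for proline peptides (1.11). Both overlapped with later arrays. MEP1B lost its call without S14D replicate 3 (adjusted p = 0.0643) and XPNPEP2 without any of the 3 S14D arrays (adjusted p = 0.0927, 0.213 and 0.079). The level of the epithelial list lay within the later range, at 11.54, 11.79 and 11.93 in S14D against 10.76 to 12.31, and 2 of its 18 genes passed. CTNNB1, beta-catenin, was higher by 0.58 and above every later array at its brightest probe set, while its other 4 probe sets overlapped and did not pass (differences of -0.11 to 0.70). The other gene was GATA6, a transcription factor of the gut epithelium (1.08), which did not pass without S14D replicate 2 or replicate 3 (adjusted p = 0.144 and 0.184). CFTR, the chloride channel, was at 3.11, 3.20 and 4.16 in S14D and at most 2.22 in later arrays, a low level in both.

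Hormone-making cells were represented by 4 genes that were all higher in S14D, of 17 measured, 8 of which were under 3 log2 units everywhere. The 4 made up 23.5%, against 11.4% of all genes, and 3 of the 17 lay above every later array, against 5.11%. SST, somatostatin, had 12.08, 12.05 and 12.19 log2 units in S14D and 9.63 to 11.67 in later arrays (median 10.71). The S14D arrays were nearly equal and above all later arrays, by 1.40 ± 0.31 or 2.65-fold (SE, adjusted p = 0.0043). SCG2, a granin of secretory granules, was higher by 2.1, and CHGB, chromogranin B, by 2.51, both without overlap. CGA, the common alpha chain of pituitary glycoprotein hormones, had 6.47, 8.24 and 7.02 in S14D and 2.57 to 6.72 in later arrays, with 1 later array inside the S14D range. CHGA, GCG, CCK and PCSK1 did not pass. These 4 genes kept their call in every fit that left out 1 array, and 1 gene of the list passed against the 6 weaned arrays alone. The level of the whole list was 8.13, 8.27 and 8.31 in S14D and 6.51 to 7.87 later. In the list of goblet, Paneth and antimicrobial genes, 2 of 20 were higher (10%, against 11.4% of all genes) and none lower. DEFB1, a beta-defensin, was higher by 2.24 (10.28, 9.01 and 11.34 in S14D, 5.62 to 8.87 later), without overlap. It missed the threshold without S14D replicate 3 (adjusted p = 0.175). A dimmer DEFB1 probe set differed by -0.27 and did not pass. The other higher gene, PR39, was near the floor in both sets (at most 2.42 in S14D).

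Of 123 measured solute carriers 18 were higher and 4 lower in S14D (14.6% and 3.25%, against 11.4% and 9.67% of all genes). The higher share was thus close to that of all genes. Values of 12 of the 123 lay above every later array, against 5.11% of all genes. The 3 largest differences were those of SLC26A11, an anion transporter (4.21), SLC46A1, the proton-coupled folate transporter of the gut (3.74), and SLC16A13, of the monocarboxylate transporter family (3.43). SLC26A11 had 10.31, 11.11 and 11.29 in S14D and 5.98 to 7.96 in later arrays. SLC46A1 had 7.17, 7.99 and 9.18 in S14D and 3.43 to 5.98 in later arrays. Both were thus separated from the later arrays by more than 1 log2 unit. SLC38A9, an arginine sensor of the lysosomal membrane, was higher by 1.09. SLC5A1, the sodium-glucose cotransporter, was lower by 0.82 (13.22, 13.62 and 13.49 in S14D, 13.26 to 15.14 later), with overlap, and SLC2A3, a glucose transporter, by 2.16. The number of higher carriers was 11 without S14D replicate 3 and 7 against weaned arrays alone. The number of lower carriers was 2 without S14D replicate 2 and 10 without 21W35D replicate 2.

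**Figure D4:**
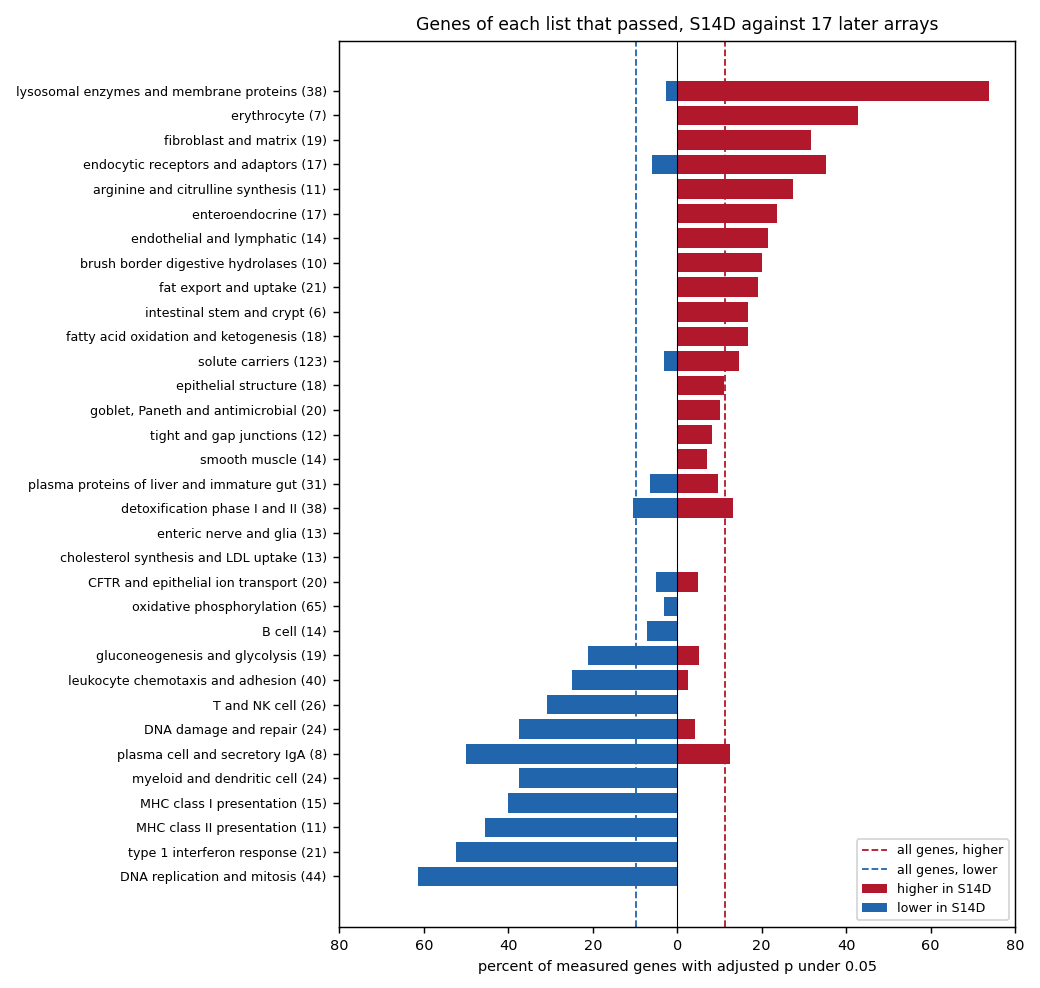
Share of the measured genes of each list, in percent, that were higher (right) or lower (left) in S14D at an adjusted p under 0.05, with dashed lines at the shares over all 6765 genes, 11.4% higher and 9.67% lower. Lysosomal genes reach farthest to the right, and DNA replication, interferon response and plasma cell genes farthest to the left.

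Genes of immune cells and of cell division were among those lower in S14D. Antigen presentation by MHC class I, by which cells show peptides from their own cytoplasm to CD8 T cells, was lower in 6 of 15 measured genes and higher in none. The lower share was 40%, against 9.67% of all genes, and 5 of the 15 lay wholly below the later arrays, against 2.56%. The mean level of the list was nearly the same in the 3 S14D arrays, at 10.98, 10.97 and 10.96 log2 units, and lay below every later array (11.20 to 12.22). TAP1, which pumps peptides into the endoplasmic reticulum, had 9.71, 10.03 and 9.80 in S14D and 11.04 to 13.19 in later arrays (median 12.48). All S14D arrays were low, with a difference of -2.31 ± 0.39, 4.94-fold (SE, adjusted p = 5.4e-04), and TAP1 also differed among the later groups (F test, adjusted p = 0.04). The class I heavy chains SLA-6 and SLA-8 were lower by 2.22 and 2.04, and PSMB8, a subunit of the immunoproteasome, by 1.78, all 3 without overlap. SLA-3 and PSME1 passed narrowly (adjusted p = 0.046 and 0.033) and each missed the threshold in some of the fits that left out 1 array. B2M, the shared light chain, did not pass. Sequences of SLA genes are close to each other, and probe sets can pick up more than 1 of them.

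The interferon response list, of genes that cells switch on after type 1 interferon, had 11 of 21 measured genes lower in S14D and none higher, with a median of -2.01. 10 of them lay wholly below the later arrays, against 2.56% of all genes. The share of lower genes was 52.4%, against 9.67% of all genes. XAF1, which promotes cell death, had 3.68, 5.42 and 4.54 log2 units in S14D and 6.56 to 11.51 in later arrays (median 8.62). The S14D arrays were low and the later ones widely spread, with a difference of -4.38 ± 0.95 (SE, adjusted p = 0.00376). PLAC8 had 9.32, 8.75 and 8.31 in S14D and 9.98 to 13.64 in later arrays, a difference of -3.19, and USP18, which takes the ubiquitin-like ISG15 off proteins, differed by -2.50. IFIT1, which binds viral RNA, had 3 probe sets that differed by -3.13, -3.45 and -1.72. STAT2, which carries the signal to the nucleus, had the least difference of those that passed (-0.85).

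The interferon list also had the most genes that differed among the later groups. The F test found such differences in 16 of its 21 genes, against 3.39% of all genes. The mean level was 8.72 ± 0.35 in S14D, 9.82 ± 0.24 in S21D, 10.55 ± 0.84 in S28D, 12.13 ± 0.36 in S35D, 9.66 ± 0.46 in 21W28D and 11.76 ± 0.20 in 21W35D (SD, n = 3, 4, 4, 3, 3 and 3). The lowest later array, at 9.29, was still above the highest S14D array, at 8.99. The number of lower genes was 6, 7 and 6 without S14D replicates 1, 2 and 3, and 3 against weaned arrays alone. MX2, an antiviral GTPase, had an adjusted p of 0.0453 that missed the threshold in 14 of the 20 fits that left out 1 array. With 1 mean per group instead of 1 mean for all later arrays 18 genes of the list were lower.

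Macrophages and dendritic cells were represented by 9 of 24 genes that were lower in S14D and none that was higher, with a median of -1.48. That was 37.5%, against 9.67% of all genes, and 7 of the 24 lay wholly below the later arrays, against 2.56%. C1QC, a chain of complement C1q made by macrophages, had 10.39, 9.90 and 10.29 log2 units in S14D and 11.03 to 12.60 in later arrays (median 11.76), a difference of -1.65 with no overlap. C1QA (-1.69), the signalling adaptors TYROBP (-1.20) and FCER1G (-1.51), and AIF1 (-1.14) showed the same separation. CD86, a costimulatory molecule of antigen-presenting cells, had 7.04, 5.89 and 5.33 in S14D and 7.52 to 9.24 in later arrays, a difference of -2.40. LY96, the partner of the endotoxin receptor TLR4, differed by -2.52, with S14D again below all later arrays. SPI1 and IRF8, transcription factors of myeloid cells that B cells also use, overlapped with later arrays and lost their call without S14D replicate 3 (adjusted p = 0.219 and 0.062). SPI1 lost it without S14D replicate 2 too (adjusted p = 0.0999). CD14, CD163 and MRC1 did not pass.

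Some T cell genes were lower in S14D. Of 26 measured T and NK cell genes 8 were lower and none higher, with a median of -1.06. The 8 made up 30.8%, against 9.67% of all genes, and 4 of the 26 lay wholly below the later arrays, against 2.56%. The list level was 5.44, 5.07 and 4.89 in S14D and 5.93 to 7.88 later. CD8A, the co-receptor of cytotoxic T cells and of many intraepithelial lymphocytes, had 6.17, 5.04 and 5.85 log2 units in S14D and 7.48 to 10.38 in later arrays (median 8.61). No S14D array came within 1 log2 unit of a later one, and the difference was -3.01 ± 0.55, 8.05-fold (SE, adjusted p = 9.6e-04). CD3E and CD2, which the T cell receptor and its adhesion need, differed by -2.49 and -2.67 and CD3G by -1.42. CD3G also differed among the later groups (F test, adjusted p = 5.6e-04), and CD2 missed the threshold without S14D replicate 2 (adjusted p = 0.0655). Without S14D replicate 2 or replicate 3, 3 genes of the list were lower.

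JCHAIN, which joins IgA into dimers for secretion, had 12.80, 12.81 and 11.44 log2 units in S14D and 13.60 to 15.20 in later arrays (median 14.46). All S14D arrays were below the later ones, by 2.08 ± 0.27 on average, 4.24-fold (SE, adjusted p = 3.5e-05). CD38, a surface enzyme of plasma cells, was near the floor in S14D (2.30, 2.66 and 2.47) and at 3.79 to 6.67 in later arrays. PIGR, the epithelial receptor that carries dimeric IgA to the lumen, differed by -2.13, overlapped with later arrays and varied among the later groups (F test, adjusted p = 0.026). It missed the threshold without S14D replicate 2 or replicate 3 (adjusted p = 0.165 and 0.157). SDC1 was the 1 gene of the 8 that was higher (1.09), and it is made by epithelial cells as well as by plasma cells. It lost its call without S14D replicate 2 or 3 (adjusted p = 0.0539 and 0.149). 4 genes of the list were lower (50%, against 9.67% of all genes), and 2 without S14D replicate 2 or replicate 3.

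Of 40 genes of leukocyte chemotaxis and adhesion, 10 were lower and 1 higher (25% and 2.5%, against 9.67% and 11.4% of all genes). Values of 3 of the 40 lay wholly below the later arrays, against 2.56% of all genes. CCR9, the receptor by which lymphocytes home to the small intestine, had 4.51, 4.50 and 4.36 log2 units in S14D and 5.89 to 8.83 in later arrays (median 6.65). The 3 S14D arrays were almost equal and all below the later ones, with a difference of -2.46 ± 0.48 (SE, adjusted p = 0.0017). Its ligand CCL25 did not pass. CXCL9, a chemokine that draws T cells and is induced by interferon gamma, had 6.30, 7.54 and 6.0 in S14D and 8.27 to 13.70 in later arrays (median 10.50). It differed by -3.92 and missed the threshold without S14D replicate 3 (adjusted p = 0.0533). RAC2, a GTPase of leukocyte movement, differed by -1.39 without overlap. The number of lower genes was 6 without S14D replicate 2, 4 without replicate 3 and 4 against weaned arrays alone. The 1 higher gene, CCL21, was near the floor in both sets.

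The levels of the MHC class II and B cell lists fell from S14D replicate 1 to replicate 3. The class II list had 9.34, 8.76 and 8.46 log2 units in replicates 1, 2 and 3. The leukocyte chemotaxis list (8.34, 7.83 and 7.33), the myeloid list (7.39, 6.80 and 6.23) and the T and NK cell list fell in the same order. Of 11 class II genes 5 were lower and of 14 B cell genes 1 was lower, although the medians were -1.21 and -1.25. These shares were 45.5% and 7.14%, against 9.67% of all genes. The B cell list had 9.24, 8.16 and 6.39 log2 units in S14D and 6.25 to 10.60 in later arrays (median 10.03), so that S14D replicate 3 lay at the low end and replicate 1 well inside the later range. The lowest later array was 21W35D replicate 2. CD79B, a chain of the B cell receptor, did not pass and had 11.26, 9.34 and 3.45 in S14D and a lowest value of 2.93 and a median of 11.30 in later arrays. FCGR2B, the inhibitory Fc receptor of B cells, had 4.83, 3.44 and 2.29 in S14D and 2.29 to 8.65 in later arrays, a difference of -3.53, and its adjusted p was 0.1 without S14D replicate 2 and 0.203 without replicate 3. 5 B cell genes were lower without S35D replicate 1 or without 21W35D replicate 2, 3 without S14D replicate 1, and 9 without the 3 arrays that stood apart. Of the class II genes none passed without S14D replicate 2, without replicate 3 or against weaned arrays alone. SLA-DRA alone lay wholly below the later arrays, at 11.14, 11.15 and 11.07 in S14D against 11.21 to 13.25. The probe sets of SLA-DMA disagreed, at -1.69 and 0.82.

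**Figure D5:**
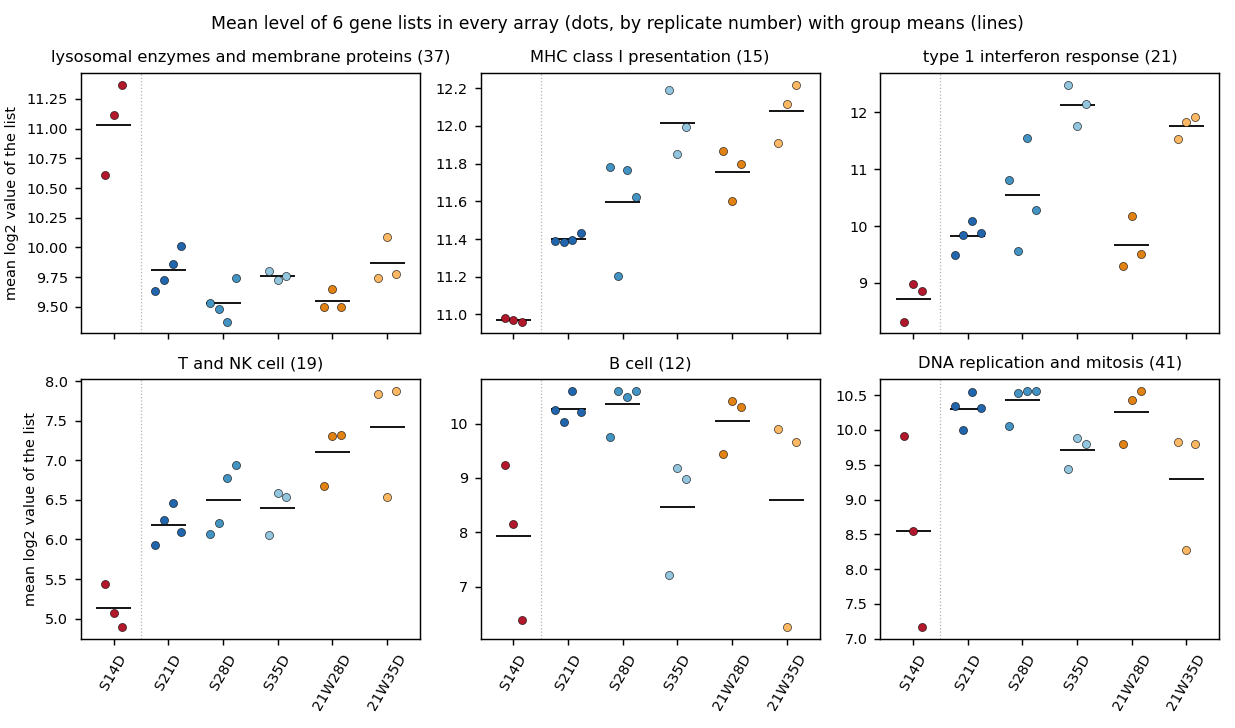
Mean log2 intensity of 6 gene lists on each array, by group. The lysosomal list is highest and the MHC class I and interferon lists lowest in S14D without overlap, while the B cell and DNA replication lists are spread over the 3 S14D arrays in the same order.

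Genes of DNA replication and mitosis were lower in S14D in 27 of 44 cases and higher in none, with a median of -1.43. The 27 made up 61.4%, against 9.67% of all genes, but no gene of this list lay wholly below the later arrays. TYMS, thymidylate synthase, had 6.4, 4.78 and 3.44 log2 units in S14D and 5.91 to 8.35 in later arrays (median 7.44). S14D replicate 1 was inside the later range and replicate 3 far below it, and the difference was -2.46 ± 0.51 (SE, adjusted p = 0.0029). The mitotic phosphatase CDC25B differed by -2.41, and the mitotic kinases NEK2 and AURKB by -2.33 and -2.20, with the same order of the 3 arrays. All 27 genes that passed were higher in S14D replicate 1 than in replicate 3, by a median of 2.75 log2 units. The list level was 9.92, 8.54 and 7.16 in S14D and 8.28 to 10.56 later (median 10.06), in the order of the B cell level of these arrays. The part of the B cell content in this difference was not tested. Without S14D replicate 3 none of the 44 genes was lower and the median was -0.80, without replicate 2 there were 8, and without replicate 1 there were 41. Against weaned arrays alone none was lower, and with the replicate number as a block 17 were.

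The spread within S14D differed between the lists with lower genes. Of the 10 DNA damage and repair genes that passed, 9 were higher in S14D replicate 1 than in replicate 3 (median 1.776). So were 10 of the 11 leukocyte chemotaxis genes (median 1.267) and 7 of the 8 T and NK cell genes (median 1.159). Of the 9 myeloid genes that passed, 9 were higher in S14D replicate 1 than in replicate 3, but by a median of 0.67 log2 units. Of the 11 interferon genes 1 was higher in replicate 1, and of the 6 class I genes 4, with a median difference of 0.09. In the lysosomal list 2 of the 29 genes that passed were higher in replicate 1 than in replicate 3 (median -0.89). For the whole set of probe sets called lower, S14D replicates 1, 2 and 3 lay at a median of 46.4%, 103.2% and 142.6% of the way from the later mean to the S14D mean. For those called higher they lay at 78.6%, 104.9% and 117.7%. The later array nearest to S14D was 21W35D replicate 2, at 73.2% of the way for the lower and 34.1% for the higher probe sets. Among the lower ones it lay beyond S14D replicate 1. S35D replicate 1 was the next of the later arrays, at 35.4% for the lower and 14.1% for the higher probe sets.

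DNA damage and repair followed DNA replication, with 9 of 24 genes lower and 1 higher (37.5% and 4.17%, against 9.67% and 11.4% of all genes). FANCG, of the Fanconi anaemia complex that repairs crosslinks, had 7.87, 7.50 and 6.74 in S14D and 8.06 to 9.31 in later arrays, and was the 1 gene of the list that lay wholly below the later arrays, by 1.49. FANCD2 differed by -2.22 and lost its call without S14D replicate 3 (adjusted p = 0.237). The number of lower genes was 14 without S14D replicate 1, 1 without replicate 3 and 15 without 21W35D replicate 2.

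Some genes of the tissue under the epithelium were higher in S14D. Of 19 fibroblast and matrix genes 6 were higher and none lower, a higher share of 31.6% against 11.4% of all genes. Among the 6 were the gelatinase MMP2 (1.35), POSTN, periostin (1.24), DCN, decorin (1.13), and COL4A2, a chain of basement membrane collagen (0.95). MMP2 had 6.85, 6.01 and 6.02 in S14D and 4.11 to 5.72 in later arrays. Without S14D replicate 1 the number was 2. Of 14 endothelial genes 3 were higher (21.4%, against 11.4% of all genes), and 1 without S14D replicate 3. CDH5, the cadherin of vessels (1.24), and PECAM1 (0.75) lay above all later arrays, as did 5.11% of all genes. CDH5 did not pass without any 1 of S14D replicates 1, 2 and 3 (adjusted p = 0.0801, 0.055 and 0.0671), nor PECAM1 without replicate 3 (0.0516). ACTA2 was the 1 smooth muscle gene of 14 that passed (0.92), a share of 7.14% and under the 11.4% of all genes. Without S35D replicate 3, 8 smooth muscle genes passed. The smooth muscle list had 8.88, 8.60 and 8.25 in S14D and 7.62 to 10.37 in later arrays, with S35D replicate 3 as the highest. Of 7 erythrocyte genes 3 were higher (42.9%, against 11.4% of all genes), with the highest values in S14D replicate 1. AHSP, the chaperone of alpha globin, had 7.78, 4.24 and 2.08 and ALAS2, the first enzyme of haem synthesis in red cells, 7.80, 3.86 and 2.08 in S14D, with no later array above 3.00. No gene of 13 for enteric nerve and glia passed.

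Some genes of this series were also measured by real-time PCR. On the arrays, 3 of these were lower in S14D. These were VAV1, a signalling protein of lymphocyte receptors (-1.85, adjusted p = 0.0388), the interferon-induced ISG15 (-3.18, adjusted p = 0.0377) and USP18 (-2.50, adjusted p = 0.00919). VAV1 had 10.01, 8.97 and 7.36 log2 units in S14D and 8.23 to 11.40 in later arrays, and ISG15 had 8.77, 9.26 and 8.85 in S14D and 9.22 to 14.89 in later arrays. Both overlapped. With the replicate number as a block both missed the threshold (adjusted p = 0.0789 and 0.0599), as they did without S14D replicate 2 (0.107 and 0.107) or replicate 3 (0.414 and 0.16), and ISG15 also without replicate 1 (0.093). VAV1 missed it in 13 of the 20 fits that left out 1 array. ICAM1 (-0.87), VCAM1 (-0.85), SLA-DOA (-1.21), IFIT2 (-1.60) and CXCL13 (-1.62) did not pass, with adjusted p between 0.265 and 0.673. The pooled difference joins unlike later groups. ICAM1 had 8.54, 7.92 and 7.88 in S14D, 9.45 to 9.79 in S21D and 7.75 to 8.22 in S35D. IFIT2 had 9.02, 9.59 and 9.94 in S14D, 9.55 to 9.79 in S21D and 12.27 to 14.17 in S35D. CXCL13 was spread in both sets, at 11.49, 12.62 and 9.45 in S14D and 3.28 to 14.39 in later arrays. It had 13.78 to 14.39 in S21D and 10.08 to 12.53 in S35D, and the 3.28 was 21W35D replicate 2 alone. VCAM1 had 13.19, 12.26 and 11.27 in S14D, 13.36 to 13.98 in S21D and 11.43 to 12.48 in S35D. SLA-DOA had 3.37, 2.08 and 2.08 in S14D, 4.12 to 6.26 in S21D and 2.08 to 2.69 in S35D. ACTB, a common reference gene, had 14.23, 13.98 and 14.24 in S14D and 14.01 to 14.54 in later arrays, a difference of -0.09 (adjusted p = 0.707), while GAPDH was lower by 0.34 and missed the threshold without S14D replicate 3 (adjusted p = 0.141).

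The later groups were also compared with each other. The F test over the 5 later groups found 533 of 23999 probe sets at an adjusted p under 0.05 (2.22%), and 4087 at an unadjusted p under 0.05. Among the probe sets called higher in S14D there were 11 such sets (1.06%), and among those called lower 35 (4.87%). The spread used for these calls includes differences among the later groups, so that probe sets that vary later were less likely to be called. The median SD of the called probe sets was 0.53 log2 units both within the 3 S14D arrays and within the 17 later arrays. In the first 2 principal components of 12267 probe sets, S14D and later arrays were separated on the second, which held 13.7% of the variance, with scores of 41.0 to 43.3 in S14D and -52.3 to 14.9 in later arrays. The first, with 49.6%, did not separate them and placed S14D replicates 1, 2 and 3 at -21.4, -70.2 and -106.6 and 21W35D replicate 2 at -91.4.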

How the data were processed

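Ileal mucosa of 20 piglets was measured on the Affymetrix GeneChip Porcine Genome Array, 1 piglet per array, after labelling with a 3' IVT kit. Background correction, quantile normalization, probe set summary and log transformation were done by the authors with gcRMA (R/Bioconductor), and the deposited values are log2 intensities per probe set. GCOS 1.2 and GCRMA are the tools in the submitters' processing notes. Raw intensities were not used here, and the number of arrays limits the precision. gcRMA draws dim probe sets to a floor (values ran from 2.08 to 16.41, with 41.2% under 3), which shortens or fixes differences near it.

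All 24123 probe sets were read and 124 controls left out. Symbols came from the platform annotation (10069 probe sets with 1 symbol, 198 with several, 13732 with none), and 9961 matched genes of Sscrofa11.1. A list member was taken by the probe set of the gene with the highest mean, which gave 6765 genes. The mean level of a list left out genes that stayed under 4 log2 units on every array.

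S14D was tested against the 17 pooled later arrays as 2 means, without a block, in limma 3.58.1 (lmFit, eBayes; R 4.3.3). P-values were adjusted over all 23999 probe sets (Benjamini-Hochberg). Calls needed an adjusted p under 0.05 and 2-fold, while single genes and list members needed the adjusted p alone. Later groups were compared by an F test with 1 mean per group. The authors' methods gave t-tests between ages, which were run as an alternative, as were other filters, scalings, weights, subsets, a replicate block and each array left out. Python 3.11.15, pandas 2.3.3, numpy 2.4.6 and matplotlib 3.10.9 were used for summaries and figures.

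Genes were named by a rule: the 15 largest differences in each direction among called probe sets without overlap and with a mean of at least 6 log2 units on the higher side, up to 4 members of each list, and the genes the study measured by PCR. Other list members were chosen after their values were seen. The comparison, the gene lists and the rule were chosen with earlier results of these data known.

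Replicate numbers were checked for pairing. Deviations of same-numbered arrays in different groups correlated above 0.1 in 20 of 46 cases and below -0.1 in 19, so that the numbers were not treated as pairs.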

Additional observations from a re-analysis of the deposited data

Results flagged for a closer look

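Among the 30 genes with the largest differences, groups of 4 arrays were searched for a single array far from the rest, using Dixon's ratio of the gap to the whole range and its critical value for 4 values. Of 34 sets of 4 arrays with a range of at least 1 log2 unit, 3 were past that value. Chance flags about 1 set in 20.

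UPK3A, which was higher in S14D by 5.31 log2 units, had 2.57, 3.94, 4.10 and 4.22 log2 units in the S28D arrays, with a ratio of 0.83 for the lowest. GPD1 was at 6.84 or more in S14D, and had 2.41 in 3 S28D arrays and 4.79 in the fourth, a ratio of 1.0. PLAC8 was at 9.32 or less in S14D, and had 10.92, 10.93 and 10.96 in 3 S21D arrays and 11.96 in the fourth, a ratio of 0.962.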

How the results depend on the processing

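The main comparison gave 1755 calls, 1037 higher and 718 lower in S14D. The higher count stayed within 1.5 times under most alternatives. Without a fold minimum there were 3869 calls (2244 higher, 1625 lower). Against the 6 weaned arrays alone, with fewer arrays, there were 701 (526 and 175), and with 1 probe set per gene, hence fewer probe sets tested, 678 (361 and 317). The methods' t-test at an unadjusted p under 0.05 and 2-fold gave 2297 (1089 lower) and after Benjamini-Hochberg 1708. Without S14D replicate 1, S35D replicate 3 and 21W35D replicate 2, an alternative chosen after seeing the data, there were 2998 calls (1533 lower). The higher calls made up 59.1% of all in the main fit, 52.6% with the unadjusted t-test, 75% against weaned arrays and 48.9% without those 3 arrays. Leaving out 1 array gave 799 to 2303 calls, 603 to 1178 higher and 196 to 1133 lower, the lowest without S14D replicate 3. The cause was not tested.

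The F test over later groups gave 533 probe sets, 1005 without dim probe sets, 332 with 1 probe set per gene, 135 with the replicate block and 195 to 744 with 1 array left out. The lowest were 195 without S35D replicate 1 and 214 without S35D replicate 3.

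With the replicate block the comparison gave 1499 calls (953 higher, 546 lower). The numbers did not pair the arrays (median correlation 0.03, and 6 of 20 arrays correlated best with their own number). Of 125 named probe sets, 119 passed, and 19 of these did not with the block. 43 passed under all 35 alternatives and none reversed. The call was lost for 65 against weaned arrays, for 57, 40 and 16 without S14D replicates 3, 2 and 1, and for 25 with array weights. Median centring moved the median of all probe sets by 0.01. With 3 S14D arrays and values at the floor, a gene that did not pass is not shown to be equal. The alternatives against suckling or weaned arrays alone depend on the labels S35D and 21W28D.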

Other observations

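Several further groups of genes held differences, and some of their members, such as NEU1, TYMS and SLC46A1, were also in the lists of the report. These groups were gathered after their values were seen, so that their counts are descriptions without a test. Of 7 measured genes of sialic acid turnover 3 were higher in S14D, all above every later array: NEU1 (4.18), the sialidase, RENBP (4.03), which acts on N-acetylmannosamine, and NPL (2.79), which splits sialic acid. CMAS, NANS, GNE and NANP, which make or activate it, did not pass. Of 8 genes of galactose use 4 were higher, the kinases GALK1 (1.91) and GALK2 (1.82), GALT (1.2) and PGM3 (1.96), a mutase of amino sugar synthesis, and none was lower. Of 9 folate genes 4 were higher, FOLR2 (4.40), FOLH1B (4.10), SLC46A1 (3.74) and GGH (1.73), which bind, trim or carry folate, and 4 were lower, TYMS (-2.46), FOLR1 (-1.51), MTHFD2 (-1.21) and MTHFD1 (-0.86).

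Of 7 subunits of AMP-activated kinase, an energy sensor, 3 were higher, PRKAA2 (3.68), PRKAB2 (2.34) and PRKAB1 (0.39). Of 21 lysosomal proteins gathered in this way 9 were higher and 1 was lower. Those that did not pass included CTSS, CTSK, NPC1 and PLBD1, which the lysosomal list of the report also held. CTSV (1.84) overlapped with the later arrays, and the other higher ones, which lay above every later array, included SMPDL3A (3.59), GRN, progranulin (2.44), the carboxypeptidase SCPEP1 (2.36) and GLMP (2.32). GM2A, the activator that presents the ganglioside GM2 to beta-hexosaminidase, was lower by 1.81 at its brightest probe set and by 2.61 at another, with S14D below every later array at both.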
